A study of Mus musculus with 4 samples.

Results

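Antioxidant and glutathione genes were examined in mouse brown adipocytes carrying a short hairpin RNA (shRNA) against the long noncoding RNA Blnc1, and in the same kind of cells carrying a scrambled control shRNA. The set holds the genes of the glutathione transferase, glutathione peroxidase, peroxiredoxin, thioredoxin and thioredoxin reductase families by their symbols, together with Nfe2l2, Nqo1, Hmox1, Hmox2, Gclc, Gclm, Gss, Gsr, Sod1, Sod3, Srxn1 and Mt1. It comprised 48 of the 17097 genes with a probe set of their own. Each gene was read from its brightest probe set by the mean of the 4 arrays. Keap1, Mt2, Prdx5, Prdx6, Gstz1 and other genes named by the same rule were not analysed here, as no probe set carried their symbol alone. There were 2 arrays of Blnc1 shRNA cells and 2 arrays of scramble cells, labelled as biological replicates. The labels do not say whether they were separate cultures, so p-values measure the spread between these samples. All 4 cultures had been differentiated for 6 days before total RNA was taken, and 250 ng of it was labelled for each array. The sequence of the hairpin and the origin of the cells are not given in the sources used here, and the level of Blnc1 itself was not analysed here.

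Cells remove peroxides with 2 sets of enzymes that draw their electrons from NADPH. In the glutathione branch, glutamate-cysteine ligase (Gclc and Gclm) and glutathione synthetase (Gss) make glutathione. Many glutathione peroxidases and the transferases use it, and glutathione reductase (Gsr) restores it. In the thioredoxin branch, thioredoxin reductases keep thioredoxins reduced, and these in turn keep peroxiredoxins active. The cytosol and the mitochondria hold separate thioredoxins, reductases and peroxiredoxins. The transcription factor NRF2, encoded by Nfe2l2, switches on many of these genes through the antioxidant response element, and KEAP1 marks it for destruction when the cell is not stressed. Brown adipocytes are rich in mitochondria, a main source of superoxide.

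The core of the antioxidant response element, TGACNNNGC, was searched on both strands in the 250 bases before each annotated start in RefSeq (build GRCm38.p6). Promoters were found for 42 of the 48 genes, and 8 of these 42 (19.0%) held a match, against 3112 of all 27025 genes in the table (11.5%). Stretches around 5 of the matches are shown because they stand before Nfe2l2, which was higher on the Blnc1 shRNA arrays, before Sod1, which was lower, and before 3 genes known as NRF2 targets that did not pass the test. Each is written 5′ to 3′ on the strand of its gene, with the match in capitals.
Nfe2l2: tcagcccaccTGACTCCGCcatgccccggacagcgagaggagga
Sod1: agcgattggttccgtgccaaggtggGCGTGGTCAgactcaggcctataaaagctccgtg
Gclm: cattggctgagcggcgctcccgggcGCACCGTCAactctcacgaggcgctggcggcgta
Prdx1: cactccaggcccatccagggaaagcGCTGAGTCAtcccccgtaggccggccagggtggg
Txnrd1: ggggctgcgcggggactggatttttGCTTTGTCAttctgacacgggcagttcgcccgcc
The Nfe2l2 stretch is chr2:75704870-75704913 on the minus strand. The others lie on plus strands, at chr16:90220681-90220739 for Sod1, chr3:122245398-122245456 for Gclm, chr4:116685441-116685499 for Prdx1 and chr10:82859089-82859147 for Txnrd1. The match before Nfe2l2 reads in the direction of the gene and begins 240 bases before the start. The other 4 are on the opposite strand, and that of Prdx1 overlaps the AP-1 motif TGACTCA. Txnrd1 has 3 annotated starts, and the match stands before 1 of them. Among the genes with a promoter in the table, a match was present in 1 of 5 that were higher, 1 of 12 that were lower and 6 of 25 that did not pass the test. A match is a string of letters and does not show binding. The table holds no promoter for Gclc, Gsr, Gsta4, Gstt2, Hmox1 or Sod3.

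Across probe sets, replicates correlated at r = 0.996 (Blnc1 shRNA) and r = 0.994 (scramble), while the correlation between groups was 0.982 to 0.984. RNA integrity differed as well. For Actb, the 3′ control probe set exceeded the 5′ one by 1.77 and 1.88 log2 units on the Blnc1 shRNA arrays, against 0.99 and 1.15 on the scramble arrays. For Gapdh this excess was smaller, 0.34 and 0.40 against 0.09 and 0.04. The control probe set for 18S ribosomal RNA read 6.64 and 7.01 against 5.13 and 4.43. Of 15 measured hepatocyte markers, 9 were lower on the Blnc1 shRNA arrays (60%, beside 7.18% of all genes). The other 6 did not pass the test. The summed linear level of the 15 was 114 to 136 on the Blnc1 shRNA arrays and 331 to 365 on the scramble arrays. Serpina1a, Fgb and Tat were at background on every array, and Serpina1a is counted among the 9 lower. Of 8 brown adipocyte markers, 5 were lower (62.5%, beside 7.18% of all genes), namely Ucp1, Cidea, Cox8b, Cox7a1 and Dio2. Adipoq, Fabp4 and Pparg did not pass the test. In bulk RNA of this kind, fewer cells of a type and less RNA per cell cannot be told apart. The part of RNA integrity, of liver transcripts and of cell state in the values below was not tested.

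On the Blnc1 shRNA arrays 12 antioxidant and glutathione genes were lower, 6 were higher and 30 did not pass the test (limma, Benjamini-Hochberg adjustment over all 17097 genes, adjusted p under 0.05). The lower share was 25%, beside 7.18% of all genes called lower, and the higher share was 12.5%, beside 11.4% of all genes called higher. These shares are not matched for brightness: 47 of the 48 genes were above background in some group, beside 12887 of all 17097 genes. The exception, Gsta2, is counted among the 12 lower. With the dimmest 40 percent of genes left out, 7 genes of the set were higher and 9 lower. Of all genes, 2093 were then higher and 1218 lower. The direction of calls over all genes depended on scaling: 1941 were higher and 1228 lower as deposited, 1514 and 1564 after quantile normalization, and 2383 and 844 when array medians were set equal. For the antioxidant and glutathione genes the same settings gave 6 higher and 12 lower, 5 and 13, and 7 and 10. Their median log2 fold change was -0.13, where that of all genes was -0.04. These medians were -0.14 and -0.03 after quantile normalization, and -0.06 and 0.03 with equal array medians. The groups did not overlap for 32 of the 48 genes (66.7%), beside 62.6% of all genes. With Blnc1 shRNA replicate 1 or replicate 2 left out, 4 and 3 genes were higher and 3 were lower each time, and 1232 and 1050 of all genes were called, in place of 3169 (18.5%).

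**Figure D1:**
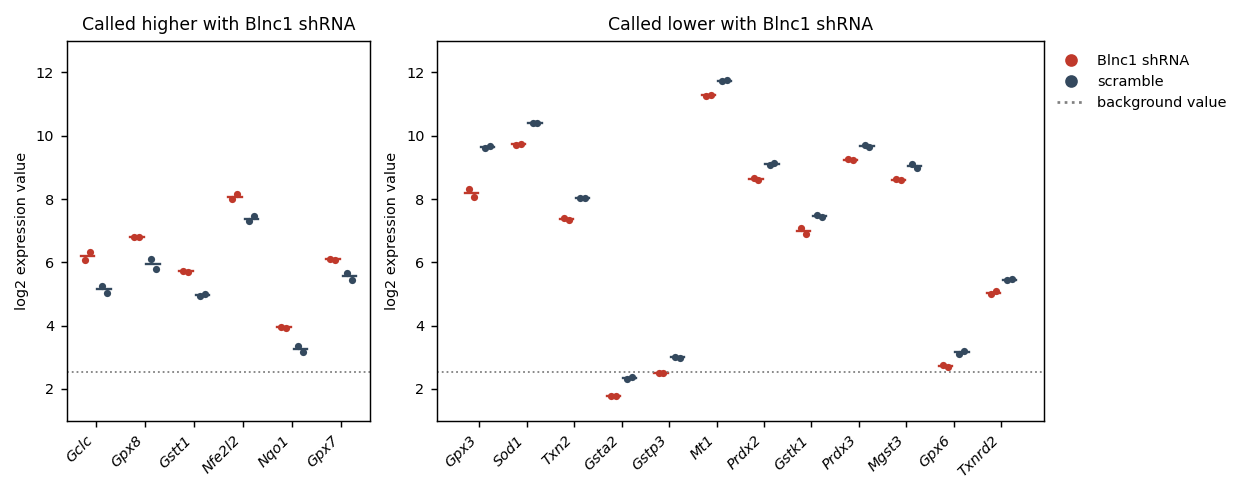
Log2 expression values on each array (points; Blnc1 shRNA in red, scramble in dark blue) with the mean of each group as a bar, for the 6 genes called higher and the 12 called lower; the dotted line is the background value of 2.55. In each of these genes the 2 Blnc1 shRNA points lie on the same side of both scramble points, and the widest gap is that of Gpx3.

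The genes that rose included the stress regulator itself and the enzyme that limits the rate of glutathione synthesis. Nfe2l2, which encodes NRF2 (Entrez Gene 18024), read 8.01 and 8.15 on the Blnc1 shRNA arrays, against 7.29 and 7.47 on the scramble arrays. The groups did not overlap, and the rise was 1.62-fold (log2 fold change 0.70 ± 0.11, SE; adjusted p = 0.00823). This rests on the brightest probe set: a dimmer probe set of Nfe2l2 read 3.18 and 3.16 against 3.55 and 3.51, a log2 fold change of -0.36, and with the mean of both probe sets the log2 fold change was 0.17 (adjusted p = 0.205). Without Blnc1 shRNA replicate 2 the adjusted p of Nfe2l2 was 0.0683. Gclc, the catalytic subunit of glutamate-cysteine ligase, read 6.07 and 6.33 in Blnc1 shRNA cells and 5.26 and 5.04 in scramble cells. It was 2.08-fold higher (log2 fold change 1.05 ± 0.13; adjusted p = 0.00334) and passed the test under all 11 alternative settings, with adjusted p-values up to 0.0256. Its partner Gclm, the modifier subunit, read 7.40 and 7.47 against 7.13 and 7.02, with a log2 fold change of 0.36 (95% interval 0.11 to 0.60) and an adjusted p of 0.0561. Gclm passed after median centring (0.0326), with dim genes left out (0.0385), with probe sets averaged (0.0382) and in eBayes with a trend (0.00732). It did not pass after quantile normalization (0.129), in robust eBayes (0.0572), with the replicate block (0.0723) or with any 1 array left out. Gsr and Gss did not pass, with intervals of -0.02 to 0.47 and -0.21 to 0.30.

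Nqo1 and Hmox1, which are commonly used as readouts of NRF2 activity, gave values of opposite sign. Nqo1, a quinone reductase, read 3.96 and 3.92 in Blnc1 shRNA cells against 3.35 and 3.18 in scramble cells, 1.60-fold higher (adjusted p = 0.00736; 0.0542 and 0.0503 without Blnc1 shRNA replicates 1 and 2). All 4 of its values lay near the low end of the scale, above the background value of 2.55. Hmox1, the stress-induced haem oxygenase, read 5.16 and 4.86 against 5.38 and 5.33, a log2 fold change of -0.34 with an adjusted p of 0.112. After quantile normalization Hmox1 passed the test in the lower direction, at -0.49 (adjusted p = 0.0416). The constitutive haem oxygenase Hmox2 had a log2 fold change of -0.27 (adjusted p = 0.126). Among the 11 alternatives Hmox2 passed only in eBayes with a trend (0.0303). Srxn1, the sulfiredoxin that rescues over-oxidised peroxiredoxins, read 5.36 and 5.78 against 5.39 and 5.57, and its groups overlapped. Its brightest probe set may also bind other transcripts, and 2 dimmer probe sets had log2 fold changes of -0.22 and -0.31, beside 0.09 for the brightest.

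**Figure D2:**
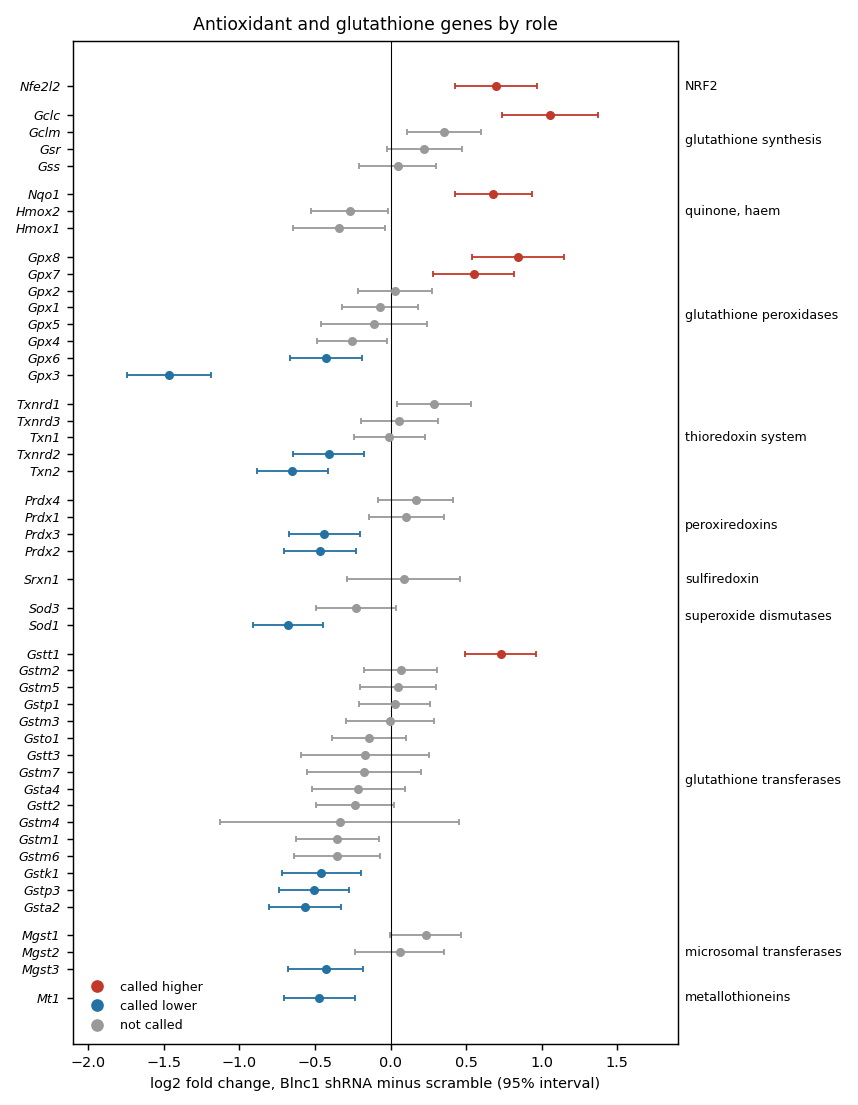
Log2 fold change (Blnc1 shRNA minus scramble) of each of the 48 genes with its 95% interval from limma, grouped by role; red points were called higher, blue points lower and grey points were not called. The glutathione peroxidases span from -1.47 (Gpx3) to 0.84 (Gpx8). Of the 16 glutathione transferases 12 are grey, beside 13928 of all 17097 genes that were not called.

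Glutathione peroxidases reduce peroxides, many but not all of them at the expense of glutathione, and their members differ in location. Gpx3, which encodes the secreted peroxidase of plasma (Entrez Gene 14778), had the largest change of the set. It read 8.31 and 8.07 in Blnc1 shRNA cells, against 9.62 and 9.69 in scramble cells, 2.77-fold lower (log2 fold change -1.47 ± 0.12; adjusted p = 0.000825). The fall passed the test under each of the 11 alternatives, with log2 fold changes of -1.59 to -1.35. Gpx7 and Gpx8, which reside in the endoplasmic reticulum and help oxidative protein folding, went the other way. Gpx8 read 6.79 and 6.79 against 6.10 and 5.80, 1.79-fold higher (adjusted p = 0.00633). Gpx7 read 6.12 and 6.09 against 5.66 and 5.45, 1.46-fold higher (adjusted p = 0.0193), but its adjusted p was 0.0561 after quantile normalization and 0.107 and 0.0991 without Blnc1 shRNA replicates 1 and 2. Gpx6 read 2.75 and 2.70 against 3.11 and 3.20, just above background in both groups (1.34-fold lower, adjusted p = 0.0291). Its adjusted p was 0.0711 without scramble replicate 2, and 0.128 and 0.172 without Blnc1 shRNA replicates 1 and 2.

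The abundant intracellular peroxidases moved less. Gpx1, the main cytosolic form, read 9.0 and 9.05 in Blnc1 shRNA cells and 9.17 and 9.02 in scramble cells. These values overlapped, and the 95% interval of the log2 fold change ran from -0.32 to 0.18. Gpx4, which reduces lipid peroxides in membranes and guards against ferroptosis, read 10.48 and 10.43 against 10.71 and 10.71. The groups were separate, with a log2 fold change of -0.26 (interval -0.49 to -0.02; adjusted p = 0.121), and a second Gpx4 probe set gave -0.24. Among the 11 alternatives Gpx4 passed only in eBayes with a trend (adjusted p = 0.00043), where 4370 of all genes were called in place of 3169. Gpx2 and Gpx5, forms known from the gut and the epididymis, read between 2.55 and 3.33 on all arrays with overlapping groups.

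In the thioredoxin branch, the mitochondrial Txn2, Txnrd2 and Prdx3 were lower. Of the cytosolic members, Prdx2 was lower as well, and Txn1, Txnrd1 and Prdx1 did not pass the test. Txn2, the mitochondrial thioredoxin (Entrez Gene 56551), read 7.40 and 7.35 in Blnc1 shRNA cells, against 8.02 and 8.02 in scramble cells. It was 1.57-fold lower (log2 fold change -0.65 ± 0.10; adjusted p = 0.0062, and 0.0566 without Blnc1 shRNA replicate 2), and its other 2 probe sets gave -0.67 and -0.74. Prdx3, the mitochondrial peroxiredoxin that depends on Txn2, read 9.25 and 9.22 against 9.71 and 9.65, 1.36-fold lower (adjusted p = 0.025). Its adjusted p was 0.0622 without scramble replicate 1, and 0.122 and 0.152 without Blnc1 shRNA replicates 1 and 2. Txnrd2, the mitochondrial thioredoxin reductase, read 5.01 and 5.08 against 5.43 and 5.48, 1.33-fold lower (adjusted p = 0.0324). The fall of Txnrd2 did not pass the test after median centring (0.0559), without scramble replicate 1 or 2 (0.0556 and 0.0722), or without Blnc1 shRNA replicate 1 or 2 (0.187 and 0.135). Its 3 dimmer probe sets gave log2 fold changes of -0.23, -0.60 and -0.23. Of the 8 brown adipocyte markers, 5 fell on the same arrays, while Adipoq, Fabp4 and Pparg did not pass the test. The part of cell state in the falls of Txn2, Prdx3 and Txnrd2 was not tested.

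The cytosolic thioredoxin Txn1 read 10.28 and 10.30 in Blnc1 shRNA cells and 10.33 and 10.26 in scramble cells, with an interval of -0.24 to 0.23. Txnrd1, the cytosolic reductase and an NRF2 target, read 7.03 and 6.92 against 6.73 and 6.65, with an interval of 0.04 to 0.54 (adjusted p = 0.102). Among the 11 alternatives Txnrd1 passed only in eBayes with a trend (0.0331). Prdx1, the main cytosolic peroxiredoxin, read 10.53 and 10.46 against 10.45 and 10.33 (log2 fold change 0.10, adjusted p = 0.527). A second Prdx1 probe set gave 0.39 ± 0.10, and the mean of both gave 0.25 (adjusted p = 0.0955). Within each array, log2 Txn2 minus log2 Txn1 was lower in Blnc1 shRNA cells by 0.64 than in scramble cells, with values of -2.88 and -2.95 against -2.31 and -2.23. The same difference fell by 0.70 for Txnrd2 minus Txnrd1 and by 0.54 for Prdx3 minus Prdx1. Set beside Prdx2, another cytosolic peroxiredoxin, Prdx3 did not stand lower: the log2 fold changes were -0.44 for Prdx3 and -0.47 for Prdx2. Prdx5 and Prdx6 had no probe set of their own. The groups were separate for each of these 3 pairs. An exact two-sided permutation test gave p = 0.333 for each, also after adjustment over the 3 pairs, which is the smallest value that 2 arrays against 2 allow.

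**Figure D3:**
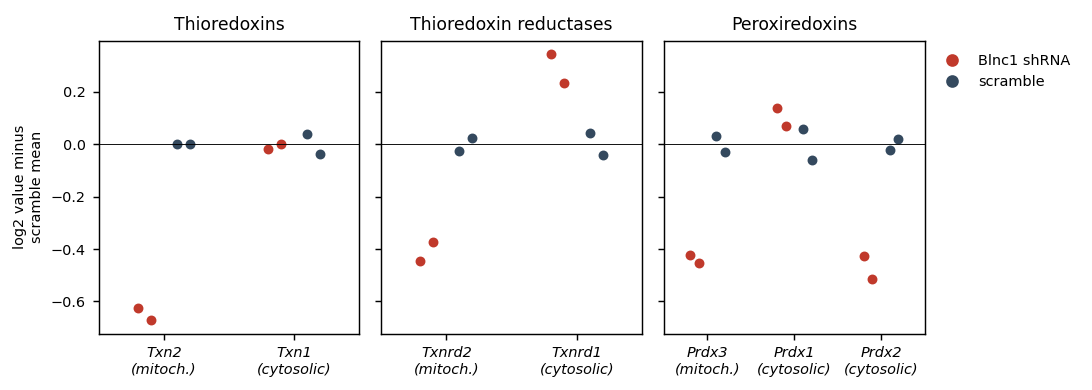
Log2 value on each array minus the mean of the scramble arrays (y axis), for mitochondrial and cytosolic thioredoxins, thioredoxin reductases and peroxiredoxins; red points are Blnc1 shRNA and dark points scramble. The mitochondrial genes sit at -0.65 (Txn2), -0.41 (Txnrd2) and -0.44 (Prdx3) on average in Blnc1 shRNA cells, and the cytosolic genes at -0.01 (Txn1), 0.29 (Txnrd1), 0.10 (Prdx1) and -0.47 (Prdx2).

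Prdx2, a second cytosolic peroxiredoxin and one abundant in red blood cells, read 8.68 and 8.59 in Blnc1 shRNA cells, against 9.08 and 9.12 in scramble cells. It was 1.38-fold lower (adjusted p = 0.0215; 0.091 and 0.149 without Blnc1 shRNA replicates 1 and 2). A dimmer Prdx2 probe set gave -0.03 on the log2 scale, and with the mean of both the adjusted p was 0.0847. The red cell marker Hba-a1 was lower on the same arrays, at 3.45 and 3.04 against 3.98 and 4.67. It was the 1 of 5 measured erythroid markers that passed the test: Alas2, Slc4a1 and Epb42 had log2 fold changes of -0.42, -0.12 and -0.11, and Klf1 of 0.24. The part of blood transcripts in the fall of Prdx2 was not tested. Prdx4, the peroxiredoxin of the endoplasmic reticulum, read 9.15 and 9.21 against 9.08 and 8.95 and did not pass (adjusted p = 0.309). Its dimmer probe sets above background gave larger values, 0.46 and 0.56 beside 0.17 for the brightest, and with the mean of all its probe sets Prdx4 was higher by 0.30 (adjusted p = 0.0497).

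Sod1, the copper and zinc superoxide dismutase of the cytosol (Entrez Gene 20655), read 9.71 and 9.74 in Blnc1 shRNA cells and 10.40 and 10.41 in scramble cells. The groups were far apart compared with the spread of the replicates, and the fall was 1.60-fold (log2 fold change -0.68 ± 0.10; adjusted p = 0.00528). Sod1 passed the test under all 11 alternatives, with adjusted p-values up to 0.044. Averaged with its dimmer probe set, which was at background, the log2 fold change was -0.43. Sod3, the extracellular form, read 3.50 and 3.65 against 3.73 and 3.87 and did not pass (adjusted p = 0.20). The mitochondrial form Sod2 is outside the set and is named after its value was seen. Sod2 read 9.82 and 9.81 against 10.19 and 10.17, 1.29-fold lower (adjusted p = 0.0431). Mt1, a metallothionein that binds zinc and copper, read 11.24 and 11.30 against 11.72 and 11.76, 1.39-fold lower (adjusted p = 0.0199; 0.127 and 0.105 without Blnc1 shRNA replicates 1 and 2). The Mt1 probe set may bind related transcripts too, so its value is uncertain with respect to other metallothioneins. A dimmer Mt1 probe set read 3.51 and 3.91 against 4.37 and 4.26. Hepatocyte markers, whose tissue is rich in metallothionein, were also lower on these arrays, as given above, and their part in the fall of Mt1 was not tested.

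Of 16 glutathione transferase genes, whose products couple glutathione to reactive compounds, 12 did not pass the test. A further 3 were lower (18.8%, beside 7.18% of all genes), with Gsta2 at background among them. Only 1 was higher (6.25%, beside 11.4% of all genes). Gstt1, a theta-class transferase, rose: it read 5.73 and 5.70 in Blnc1 shRNA cells, against 4.95 and 5.01 in scramble cells. The rise was 1.66-fold (log2 fold change 0.73 ± 0.10; adjusted p = 0.00426) and passed the test under each of the 11 alternatives, with adjusted p-values up to 0.0365. Gstk1, the kappa-class transferase of mitochondria and peroxisomes, read 7.09 and 6.91 against 7.48 and 7.42, 1.37-fold lower (adjusted p = 0.0305). Leaving out any 1 array ended the call for Gstk1, with adjusted p-values of 0.0734 and 0.0502 without scramble replicates 1 and 2, and 0.0781 and 0.205 without Blnc1 shRNA replicates 1 and 2. Gstp3 read 2.49 and 2.50, at background, against 3.02 and 2.99, at least 1.37-fold lower (adjusted p = 0.015; 0.0939 and 0.0997 without Blnc1 shRNA replicates 1 and 2). Gsta2 also had an adjusted p of 0.0113, but it was at background in both groups, so no fold is given. That p was 0.0769 and 0.0767 without Blnc1 shRNA replicates 1 and 2, and 0.107 with the mean of its probe sets.

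The bright transferases of the mu, omega and pi classes did not pass the test. Gstp1, a pi-class gene, read 9.69 and 9.75 in Blnc1 shRNA cells and 9.71 and 9.68 in scramble cells, with an interval of -0.21 to 0.26. Gstm1 read 8.55 and 8.33 against 8.83 and 8.75, a log2 fold change of -0.35 with an adjusted p of 0.078. Among the 11 alternatives it passed only in eBayes with a trend (0.00459). Gstm1 was read from a probe set prone to cross-hybridisation, and genes of the mu class are near-identical in parts, so their values are uncertain. Gstm2, Gstm3 and Gstm5 had log2 fold changes of 0.07, -0.01 and 0.05, and their groups overlapped. Gstm4 differed between the Blnc1 shRNA replicates, at 3.51 and 4.69, against 4.37 and 4.50 in scramble. Without Blnc1 shRNA replicate 2 Gstm4 was lower by a log2 fold change of -0.93 (adjusted p = 0.0203), and without replicate 1 it was at 0.25. Gsto1, an omega-class gene, read 9.40 and 9.48 against 9.53 and 9.64 (log2 fold change -0.15, adjusted p = 0.371). Like that of Gstm1, this probe set is of a type prone to cross-hybridisation. A second bright Gsto1 probe set read 8.80 and 8.73 against 9.27 and 9.31 (-0.53 ± 0.10), and with the mean of both Gsto1 was lower, at -0.34 (adjusted p = 0.0361). The other transferases that did not pass, Gsta4, Gstm6, Gstm7, Gstt2 and Gstt3, had log2 fold changes between -0.35 and -0.17.

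Of the 3 microsomal transferases, Mgst3, which also acts as a peroxidase, was lower. It read 8.62 and 8.60 in Blnc1 shRNA cells, against 9.11 and 8.97 in scramble cells, 1.35-fold lower (adjusted p = 0.0324). The call for Mgst3 was lost after median centring (0.0527), without scramble replicate 1 (0.0887), and without Blnc1 shRNA replicates 1 and 2 (0.142 and 0.17). Mgst1 read 11.32 and 11.31 against 11.05 and 11.11, a log2 fold change of 0.23 (adjusted p = 0.149). Among the 11 alternatives Mgst1 passed only in eBayes with a trend (0.000321). Mgst2 overlapped between the groups, with an interval of -0.23 to 0.35.

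**Figure D4:**
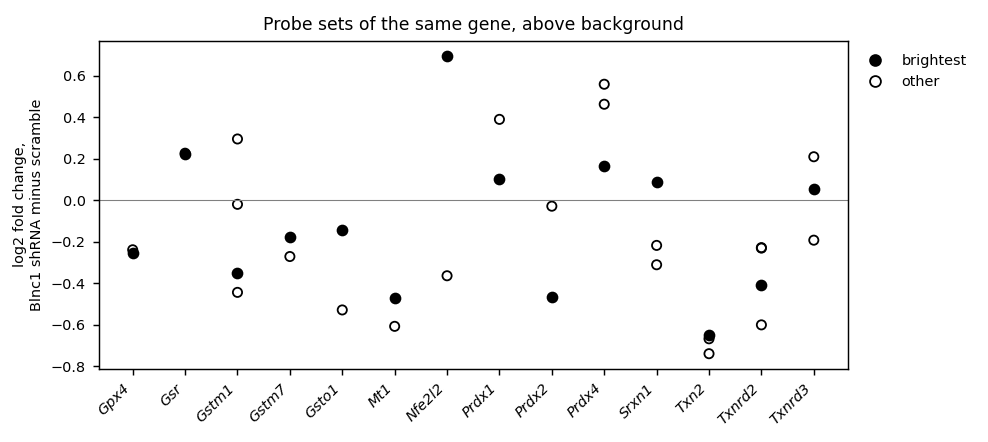
Log2 fold change (Blnc1 shRNA minus scramble) of each probe set above background, for the 14 genes with more than 1 such probe set; filled points are the brightest probe set and open points the others. The 3 probe sets of Txn2 lie between -0.74 and -0.65, while those of Nfe2l2 lie at 0.70 and -0.36.

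Of the other 22 probe sets above background, 5 were opposite in sign to the brightest of their gene. They belonged to 4 of these 14 genes, Nfe2l2, Srxn1, Gstm1 and Txnrd3. For Gstm1 the dimmest probe set gave 0.30 beside -0.35 for the brightest, while the other probe sets gave -0.44 and -0.02 and the mean of all gave -0.13. For Txnrd3, a reductase known from testis, a dim probe set gave -0.19 beside 0.06.

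Of 16 measured genes that supply these enzymes with NADPH, 6 were higher (37.5%, beside 11.4% of all genes), 3 were lower (18.8%, beside 7.18%) and 7 did not pass the test, with a median log2 fold change of 0.12. Me1, the cytosolic malic enzyme, read 10.54 and 10.51 in Blnc1 shRNA cells and 9.0 and 8.82 in scramble cells, 3.07-fold higher (adjusted p = 0.000427). Taldo1, an enzyme of the pentose phosphate pathway, was 1.54-fold higher (adjusted p = 0.00747; 0.0622 without Blnc1 shRNA replicate 1). Pgls, which acts in the NADPH-producing part of that pathway, was lower, at 6.96 and 7.0 against 7.86 and 7.89 (1.86-fold, adjusted p = 0.00205). The mitochondrial enzymes of the list differed in direction. Aldh1l2 (1.45-fold, adjusted p = 0.0156) and Nnt (1.53-fold, adjusted p = 0.0433), named after their values were seen, were higher. Idh2, Mthfd1l and Nadk2 did not pass the test. Me2, a mitochondrial malic enzyme, was at background in Blnc1 shRNA cells (2.35 and 2.29) and read 3.18 and 2.79 in scramble cells (adjusted p = 0.0226; 0.0876 and 0.119 without Blnc1 shRNA replicates 1 and 2). Without Blnc1 shRNA replicates 1 and 2 the number of NADPH supply genes called was 2 and 4, in place of 9.

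The 32 measured NRF2 target genes outside the set include 5 that are also NADPH supply genes. Of the 32, 7 were higher (21.9%, beside 11.4% of all genes), 3 were lower (9.38%, beside 7.18%) and 22 did not pass, with a median of 0.16. Among the 7 are Me1, Taldo1 and Tkt, which are also counted among the higher NADPH supply genes. Beside Me1, the rises with the largest fold were those of Aldh1a1, a retinaldehyde dehydrogenase (2.16-fold, adjusted p = 0.00457), Ptgr1, which reduces unsaturated aldehydes (2.07-fold, adjusted p = 0.00426), and the epoxide hydrolase Ephx1 (1.78-fold, adjusted p = 0.00303). Aldh1a1 read 8.19 and 8.20 in Blnc1 shRNA cells, against 7.30 and 6.86 in scramble cells. The 3 lower genes are named after their values were seen. Slc40a1, the iron exporter ferroportin, was 1.75-fold lower (adjusted p = 0.00343). The carbonyl reductase gene Cbr1 was 1.44-fold lower (adjusted p = 0.0134; 0.0822 and 0.0966 without Blnc1 shRNA replicates 1 and 2). Its relative Cbr3 was 1.38-fold lower (adjusted p = 0.0447; 0.0724 with equal array medians, 0.119 without scramble replicate 2, and 0.239 and 0.0943 without Blnc1 shRNA replicates 1 and 2). Without Blnc1 shRNA replicate 1, 6 of these genes were called in place of 10. Of 19 NRF2 partners and regulators, 3 were higher (15.8%, beside 11.4% of all genes), 1 was lower (5.26%, beside 7.18%) and 15 did not pass. Limma called 0 of them without Blnc1 shRNA replicate 1 (4 at an unadjusted p under 0.05) and 1 without replicate 2. Crebbp, a coactivator of NRF2, read 5.73 and 5.57 against 4.74 and 3.99, 2.44-fold higher (adjusted p = 0.0109; 0.0549 without Blnc1 shRNA replicate 1). Trim21, an E3 ubiquitin ligase, was 1.62-fold higher (adjusted p = 0.00809; 0.0525 and 0.0566 without Blnc1 shRNA replicates 1 and 2, and 0.122 with the mean of its probe sets). Cand1, which regulates cullin ligases, was 1.43-fold higher (adjusted p = 0.0159; 0.111 and 0.0767 without Blnc1 shRNA replicates 1 and 2, and 0.0558 with the mean of its probe sets). Maff, a small MAF protein that pairs with NRF2 on DNA, was 1.44-fold lower (adjusted p = 0.0186; 0.0505 without scramble replicate 1, and 0.0951 and 0.113 without Blnc1 shRNA replicates 1 and 2).

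Of 23 genes of cysteine supply and glutathione turnover, 2 were higher (8.70%, beside 11.4% of all genes), 2 were lower (8.70%, beside 7.18%) and 19 did not pass. Limma called 0 of them without Blnc1 shRNA replicate 1 or 2 (4 and 7 at an unadjusted p under 0.05). Cth, which makes cysteine by transsulfuration, read 6.20 and 6.03 in Blnc1 shRNA cells against 5.37 and 5.70 in scramble cells (1.5-fold higher, adjusted p = 0.0308; 0.104 after quantile normalization, 0.0777 without scramble replicate 1, and 0.162 and 0.0892 without Blnc1 shRNA replicates 1 and 2). Abcc4, an efflux transporter, was 1.51-fold higher (adjusted p = 0.00933; 0.0521 and 0.08 without Blnc1 shRNA replicates 1 and 2). Glo1, the glyoxalase that uses glutathione to clear methylglyoxal, was 1.38-fold lower (adjusted p = 0.0217; 0.0563 without scramble replicate 1, and 0.117 and 0.131 without Blnc1 shRNA replicates 1 and 2), but the mean of its probe sets gave a log2 fold change of 0.02. Slc1a1 also passed the test (adjusted p = 0.0168; 0.0882 and 0.119 without Blnc1 shRNA replicates 1 and 2, and 0.234 with the mean of its probe sets) and was at background in both groups. The cystine transporter gene Slc7a11 was at background in both groups as well.

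Of 47 other thiol, peroxide and selenoprotein genes, 8 were higher (17%, beside 11.4% of all genes) and 8 were lower (17%, beside 7.18%), and 31 did not pass. Selenom, a selenoprotein of the endoplasmic reticulum, read 5.60 and 5.95 in Blnc1 shRNA cells and 4.59 and 4.27 in scramble cells, 2.54-fold higher (adjusted p = 0.00261). The sestrin gene Sesn3 was 1.87-fold higher (adjusted p = 0.00513), and Pon2, a lactonase of the paraoxonase family, was 1.67-fold higher (adjusted p = 0.00497), from a probe set that may bind other transcripts (log2 fold change 0.74, and 0.34 with the mean of its probe sets). Selenoo, a mitochondrial selenoprotein, read 4.69 and 4.33 against 5.43 and 5.25, 1.78-fold lower (adjusted p = 0.0107; 0.0629 without Blnc1 shRNA replicate 2). In this list 9 genes were called without scramble replicate 1, and 6 and 3 without Blnc1 shRNA replicates 1 and 2, in place of 16. Of 13 genes of metal and haem handling, 1 was higher and 1 was lower (7.69% each, beside 11.4% and 7.18% of all genes). Atp7a, a copper pump, was 1.54-fold higher (adjusted p = 0.019; 0.111 and 0.07 without Blnc1 shRNA replicates 1 and 2). Hpx, a haem carrier made mainly in liver and also a hepatocyte marker here, was 1.98-fold lower (adjusted p = 0.0336; 0.135 and 0.0991 without Blnc1 shRNA replicates 1 and 2), with a log2 fold change of -0.99, and -0.58 without scramble replicate 1. Without scramble replicate 2 limma called 4 of these genes, and without Blnc1 shRNA replicates 1 and 2 it called 1 and 0 (3 at an unadjusted p under 0.05). The other 11, among them the zinc sensor gene Mtf1 with a log2 fold change of -0.03, did not pass.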

How the data were processed

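Expression on Affymetrix arrays was read from the table of log2 values that the authors deposited. The submitters' processing notes name affy, RMA and limma without a version or a role, and the normalization steps are not given in the sources used here. That the scale is log2 was judged from the range of 1.05 to 12.36. Of 45037 probe sets other than controls, 28898 have a single gene symbol in the platform annotation. Background was set at 2.55, the brightest antigenomic control with up to 24 G or C bases. Groups with a mean no higher than this are described as at background, and folds against them were computed from 2.55 as lower bounds.

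Blnc1 shRNA was compared with scramble in limma 3.58.1 (R 4.3.3), fitting the group alone over all probe sets and adjusting p by Benjamini-Hochberg across 17097 genes, two-sided, at 0.05. With 2 residual and 4.93 prior degrees of freedom, a log2 fold change had a median standard error of 0.11, so the number of arrays limits the precision. The procedure was tested on simulated data with independent noise on each array, which does not cover group differences in RNA integrity. Figures were made with matplotlib 3.10.9. All called genes of the set are named, together with the 4 called genes of largest change in each of 6 related lists (all, where fewer were called). Some further genes of these lists are named for their role or after their values were seen. Members, lists and rules were chosen with earlier results of these data known. Alternatives were quantile normalization, equal array medians, omitting the dimmest 40 percent of genes, eBayes in its trend and robust forms, averaging a gene's probe sets, a replicate block, and omitting each array; a lone array was taken to vary as the other group does.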

Additional observations from a re-analysis of the deposited data

How the results depend on the processing

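The 18 called antioxidant and glutathione genes kept their direction in all 195 values under the alternatives, and the call in 158. Gsta2, Gstp3 and Gpx6 have no value with dim genes left out, as that filter removes them. Of the 37 lost calls, 6 came from the other alternatives and the rest from leaving out an array. That step leaves fewer residual degrees of freedom, and what ended these calls was not tested. Leaving out 1 array gave 3 to 6 higher and 3 to 9 lower genes of the set, and 1050 to 2841 called genes in all. It gave 2 to 7 called genes for NADPH supply, 6 to 10 for other NRF2 targets and 3 to 11 for other thiol, peroxide and selenoprotein genes. The ranges were 0 to 6 for NRF2 partners and regulators, 0 to 4 for cysteine supply and glutathione turnover and 0 to 4 for metal and haem handling. Where limma called 0, there were 4 genes (NRF2 partners), 4 and 7 genes (cysteine supply) and 3 genes (metal and haem) at an unadjusted p under 0.05. In eBayes with a trend 9 genes of the set were higher and 15 lower, and 4370 genes were called in all, in place of 3169. There 7 cysteine supply genes were called, in place of 4. For metal and haem 4 genes were called there, after quantile normalization and with dim genes left out, in place of 2. The cause was not tested. With the replicate number as a block, 6 genes of the set were higher and 12 lower, as without it, and 3179 genes were called in all. The labels do not say that a shared number marks a shared batch, and deviations of same-numbered arrays correlated at r = 0.0355.

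Among the genes of the set that did not pass the test, 15 changed sign under some setting, and the cause was not tested. After quantile normalization the log2 fold change was -0.053 for Gss, -0.035 for Gstm2, -0.037 for Gstm5, -0.00033 for Gstp1, -0.058 for Mgst2, -0.078 for Srxn1, 0.038 for Txn1 and -0.077 for Txnrd3. With equal array medians it was 0.059 for Gstm3 and 0.057 for Txn1. With the mean of all probe sets it was -0.15 for Srxn1. Outside the set, Glo1, which had been called lower, was at 0.023 in that setting. With 1 array left out the ranges were -0.15 to 0.0092 for Gpx1, -0.029 to 0.091 for Gpx2, -0.26 to 0.041 for Gpx5, -0.028 to 0.13 for Gss, -0.13 to 0.12 for Gstm3, -0.93 to 0.25 for Gstm4 and -0.020 to 0.12 for Gstm5. They were -0.37 to 0.016 for Gstm7, -0.00089 to 0.054 for Gstp1, -0.44 to 0.095 for Gstt3, -0.042 to 0.16 for Mgst2, -0.12 to 0.30 for Srxn1, -0.047 to 0.031 for Txn1 and -0.023 to 0.14 for Txnrd3.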
